A study of Mus musculus with 9 samples.

Results

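The stefins and cystatins are small inhibitors of cysteine proteases. Here 7 of them were followed in mouse leukaemia cells after withdrawal of doxycycline, the drug on which expression of an oncogenic kinase depends. The 7 are the stefin A genes Stfa1, Stfa2, Stfa2l1, Stfa3 and Csta1, the stefin B gene Cstb and the cystatin C gene Cst3. They were taken by symbol and are 7 of the 24756 rows of the count table. They were chosen by their fold changes in these same comparisons, so their values are given as a description, with no test. The cells are an acute myeloid leukaemia line made from mouse foetal liver cells with 2 retroviral vectors. MSCV-Luc2-IRES-MLL-AF9 expresses luciferase and the MLL-AF9 fusion constitutively, and TRE-tight-DsRED-IRES-FLT3-ITD expresses a red fluorescent protein and FLT3-ITD, an internal tandem duplication of the receptor kinase FLT3, only while doxycycline is present. There were 3 groups of 3 libraries: ON, grown in 1 µg/mL doxycycline; OFF24, 24 h after the drug was washed out with PBS and left out of the medium; and OFF48, 48 h after the same wash-out. All 3 groups carry both vectors and express MLL-AF9, no label describes cells without FLT3-ITD from the start, and only the ON cells had neither wash nor drug withdrawal, so loss of FLT3-ITD and withdrawal of doxycycline cannot be told apart. Whether the 3 libraries of each group stem from separate cultures is not in the labels, so errors and p-values measure only the spread between libraries, which may be technical.

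Stefins lack a signal peptide and act inside the cell, whereas cystatin C is secreted. Both kinds wedge a hairpin loop into the active site of papain-like cathepsins, the proteases of the lysosome, and block it reversibly. The mouse has an expanded set of stefin A genes in a cluster on chromosome 16, known for expression in the neutrophil lineage and skin, while stefin B and cystatin C are made in most tissues.

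Of the genes described, 5 lie in the stefin A cluster, which in the GENCODE annotation of GRCm38 runs from 36119946 to 36455392 on chromosome 16 (335.4 kb) and holds 11 rows of the table. Csta1 (chr16:36119946-36131241, minus strand) lies at its start, followed by Stfa2l1 (chr16:36156811-36161953, plus) and, in the middle, Stfa1 (chr16:36276951-36285373, plus). Stfa2 (chr16:36403992-36408457, minus) and Stfa3 (chr16:36450537-36455392, minus) are neighbours at the far end. Cstb lies at chr10:78425669-78427622 on the plus strand and Cst3 at chr2:148871722-148875692 on the minus strand. All are annotated as protein coding.

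The inhibitory loop is the sequence these genes share, and it is shown because it identifies them as one family while also showing how alike the stefin A copies are. The longest annotated coding sequence of each gene was searched for the consensus glutamine, any residue, valine, any residue, glycine. All 7 had it. With the 5 other rows of the cluster that GENCODE annotates as coding, it was found in all 12 coding genes searched. The 15 bases of the 5 loop codons are in capitals, with 15 coding bases on each side, all exonic and on the coding strand of GRCm38; in Cst3 the stretch spans an intron.
Stfa1: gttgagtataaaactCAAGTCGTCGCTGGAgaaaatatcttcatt
Stfa2: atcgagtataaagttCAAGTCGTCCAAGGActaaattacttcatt
Stfa2l1: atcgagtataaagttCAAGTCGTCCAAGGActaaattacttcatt
Stfa3: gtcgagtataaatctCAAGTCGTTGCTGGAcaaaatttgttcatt
Csta1: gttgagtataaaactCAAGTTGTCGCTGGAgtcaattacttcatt
Cstb: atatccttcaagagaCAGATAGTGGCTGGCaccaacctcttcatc
Cst3: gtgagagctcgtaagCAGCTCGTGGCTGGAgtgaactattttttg
With positions counted from 1 at the first capital and the Stfa1 base first, Stfa2 and Stfa2l1 carry the same substitutions, G10C, C11A and T12A. Stfa3 differs from Stfa1 only by C9T and Csta1 only by C6T. Cst3 differs by A3G, G4C and C9G, and Cstb by A3G, G4A, C6A, C9G and A15C. Over the whole coding sequence, Stfa2 and Stfa2l1 are identical at 96.5% of the bases of the shorter one, Stfa1 and Stfa2 at 74.7%, Stfa1 and Cstb at 62.0% and Stfa1 and Cst3 at 55.3%.

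Because the library kit reads the 3′ ends of transcripts, what matters for telling the copies apart is the 3′ end. In the last 400 bases of the transcript with the longest coding sequence, 32.5% of the 50-base words of Stfa1 also occur in its cluster neighbours BC100530 or BC117090. Of the words of Stfa2, 19.1% occur in another gene (17.7% in Stfa2l1, and a few in the annotated genes Gm49652 and Gm4758), and of those of Stfa2l1, 24.2% do (17.7% in Stfa2 and 6.55% in Gm49652). None of the words of this stretch of Stfa3, Csta1, Cstb or Cst3 occurs in another gene, but 2.85% of those of the far more abundant BC100530 occur in other annotated transcript sequence of Csta1. Values of Stfa1, Stfa2, Stfa2l1 and Csta1 are therefore uncertain to the extent that reads from shared stretches were split or dropped, and the sources used here do not say how such reads were treated.

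The shallowest library, OFF48 replicate 2, held 1329296 counts and the deepest, ON replicate 2, 4038456. Enough counts for a test were found for 10215 genes, all 7 described here among them. Values below are CPM, counts relative to the library total, scaled by TMM, a correction for differences in composition between libraries. They are not divided by transcript length, because the kit makes fragments only near the 3′ end, so the order of 2 genes is an order of read counts. A count of 0 allows up to 3 counts, which is 0.735 to 2.24 CPM across the libraries; the table has no molecular identifiers to separate PCR copies, so such limits cover counting error only. The row of mouse Flt3 held 3 to 6 counts in ON, 4 to 10 in OFF24, and 2 to 7 in OFF48 libraries, and did not follow the inducible vector. Loss of FLT3-ITD itself was not measured here. Myeloid identity genes (Ptprc, Itgam, Spi1, Cebpa) summed to between 430 and 541 CPM in ON libraries, 595 and 688 in OFF24 libraries, and 662 and 861 in OFF48 libraries. Summed markers of erythroid, lymphoid, hepatocyte and stromal cells and of keratinocytes, which can also express stefin A, reached at most 5.23 CPM in any library, with 3 of 7, 2 of 9, 4 of 9 and 4 of 7 measured markers at 0 throughout. Markers of megakaryocytes, mast cells and basophils, led by Gp1bb, summed to between 63.1 and 82.0 CPM in ON, 56.7 and 70.4 in OFF24, and 78.6 and 91.9 in OFF48 libraries, with 4 of 8 at 0 throughout; of the 2 tested, 1 rose and 1 fell in OFF24 against ON, and 1 rose in OFF48 against ON.

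Stfa1, an intracellular cathepsin inhibitor, was by far the most abundant of the 7 genes, with a dip at 24 h and a return at 48 h. It had 3949, 4069 and 3767 CPM in the ON libraries, 1924, 1627 and 1724 in OFF24 and 3900, 4273 and 4709 in OFF48. All OFF24 libraries lay below all ON libraries, while the OFF48 and ON libraries overlapped. Stfa1 was 2.23-fold lower in OFF24 than in ON (log2 fold change -1.16 ± 0.10, SE), and in OFF48 it differed from ON by a log2 fold change of 0.13 ± 0.10. OFF48 was 2.44-fold higher than OFF24. By level it ranked 18th among the 16962 genes with a count in ON, 75th in OFF24, and 14th in OFF48.

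Stfa2 and Stfa3, the adjacent pair at the end of the cluster, did not return. Stfa2 had 383, 355 and 318 CPM in ON, 89.2, 72.9 and 72.2 in OFF24 and 67.2, 75.5 and 83.1 in OFF48 libraries. Stfa3 had 439, 339 and 383 CPM in ON, 120, 94.5 and 99.2 in OFF24 and 88.0, 94.9 and 106 in OFF48 libraries. For both genes, every OFF24 and OFF48 library lay below every ON library, and the OFF24 and OFF48 libraries overlapped. Stfa2 was 4.53-fold lower in OFF24 than in ON (log2 -2.18 ± 0.12) and 4.67-fold lower in OFF48 than in ON (log2 -2.22 ± 0.12). Stfa3 was 3.71-fold lower in OFF24 than in ON (log2 -1.89 ± 0.12) and lower by a log2 fold change of -2.00 ± 0.13 in OFF48 than in ON. Between OFF48 and OFF24 the log2 fold change was -0.04 ± 0.13 for Stfa2 and -0.11 ± 0.13 for Stfa3.

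Stfa2l1, whose coding sequence is nearly that of Stfa2, had an intermediate course. It had 81.4, 69.8 and 78.5 CPM in ON, 14.2, 13.5 and 11.9 in OFF24 and 25.4, 22.4 and 39.8 in OFF48 libraries. The OFF48 libraries lay above those of OFF24 and below those of ON, without overlap. It was 5.83-fold lower in OFF24 than in ON (log2 -2.54 ± 0.18), the largest difference from ON among the 7 genes at 24 h, and 2.50-fold lower in OFF48 than in ON (log2 -1.32 ± 0.16). OFF48 replicate 3 was the highest of its group, and without it the log2 fold change of OFF48 over ON was -1.64. Csta1 was close to the detection limit, with 14, 19 and 9 counts in ON, 6, 3 and 10 in OFF24, and 6, 1 and 5 in OFF48 libraries. In CPM all OFF24 and OFF48 libraries lay below all ON libraries, and the log2 fold change was -0.85 ± 0.44 for OFF24 and -1.31 ± 0.49 for OFF48 over ON; with 1 library left out at a time, the first ran from -1.24 to -0.49.

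**Figure D1:**
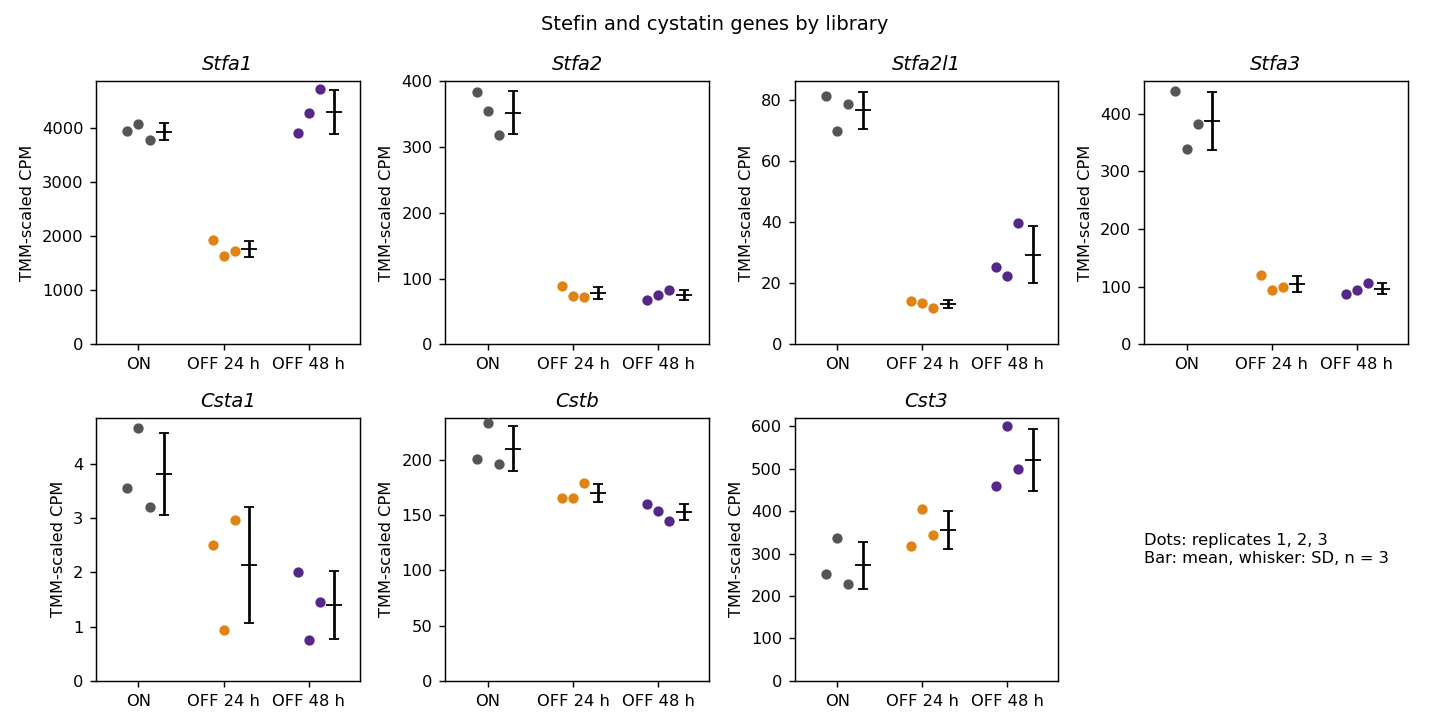
TMM-scaled CPM of the 7 genes in each of the 9 libraries, in panels with axes that start at 0; dots are libraries, bars the mean and whiskers the SD of 3 libraries. Stfa1 is low only in OFF 24 h, Stfa2 and Stfa3 are low at both times without doxycycline, Cstb is somewhat lower and Cst3 is highest in OFF 48 h.

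The panels of levels by library show different courses among the stefin A genes: a return in Stfa1, a part return in Stfa2l1 and none in Stfa2 and Stfa3. Within a library, scaling cancels in the ratio of 2 counts. The ratio of Stfa1 to Stfa2 was 11.2 ± 0.80 in ON, 22.6 ± 1.19 in OFF24 and 57.1 ± 0.80 in OFF48 libraries (mean ± SD, n = 3 each), with no overlap between groups. The ratio of Stfa3 to Stfa2 changed less, at 1.10 ± 0.13 in ON, 1.34 ± 0.04 in OFF24 and 1.28 ± 0.03 in OFF48. All ON libraries still lay below all OFF24 and OFF48 libraries in this ratio. The ratio of Stfa2l1 to Stfa2 was 0.219 ± 0.026 in ON, 0.169 ± 0.013 in OFF24 and 0.385 ± 0.091 in OFF48. Among the reads of these copies, the share of Stfa1 over Stfa2 and Stfa3 was thus larger at each time away from doxycycline.

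**Figure D2:**
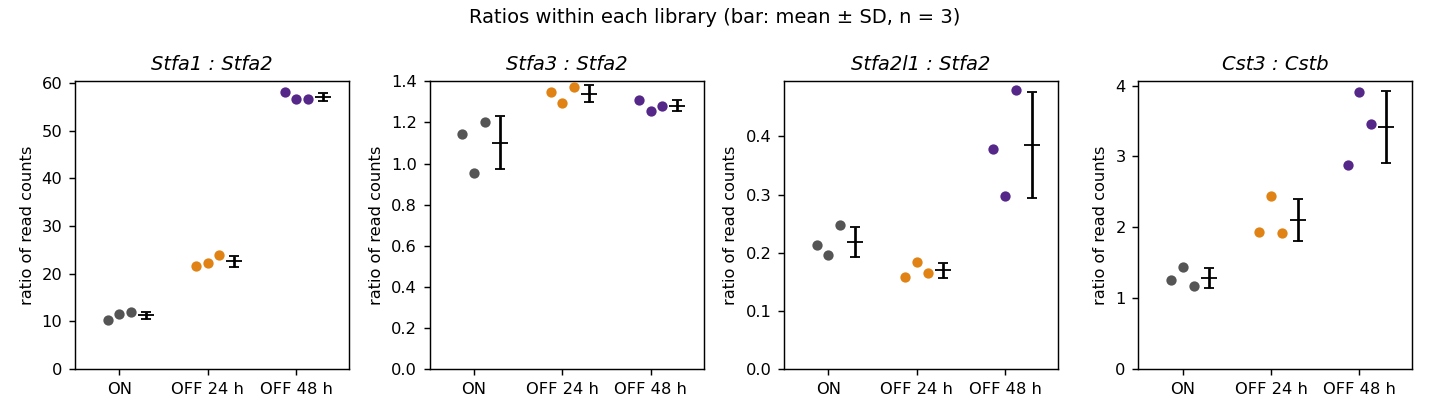
Ratios of read counts of pairs of genes within each library; dots are libraries, bars the mean and whiskers the SD of 3, on axes that start at 0. The ratio of Stfa1 to Stfa2 is about 11.2 in ON, 22.6 in OFF 24 h and 57.1 in OFF 48 h, and that of Cst3 to Cstb increases from group to group.

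Summed over the 5 stefin A genes described, expression was 4748 ± 172 CPM in ON cells, 1956 ± 175 in OFF24 cells, and 4496 ± 429 in OFF48 libraries, most of it from Stfa1. The 6 other rows of the cluster, known by clone or model names, carried still more reads. All 11 rows together took 1.84% to 2.03% of all counts in ON, 0.738% to 0.909% in OFF24 and 1.27% to 1.62% in OFF48 libraries. BC100530, whose coding sequence is identical to that of Stfa1 at 98.0% of the shorter one's bases, averaged 7003 ± 782 CPM in ON cells, 3332 ± 201 in OFF24 cells, and 5328 ± 660 in OFF48. It fell in OFF24 against ON (log2 -1.07, adjusted p = 3.78e-07, edgeR), was still lower in OFF48 than in ON (log2 -0.39, adjusted p = 0.00446), and rose in OFF48 against OFF24 (log2 0.68, adjusted p = 0.000126). BC117090 had log2 fold changes of -0.91 in OFF24 against ON (adjusted p = 0.00538), 0.10 in OFF48 against ON (adjusted p = 0.716) and 1.01 in OFF48 against OFF24 (adjusted p = 0.00494).

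**Figure D3:**
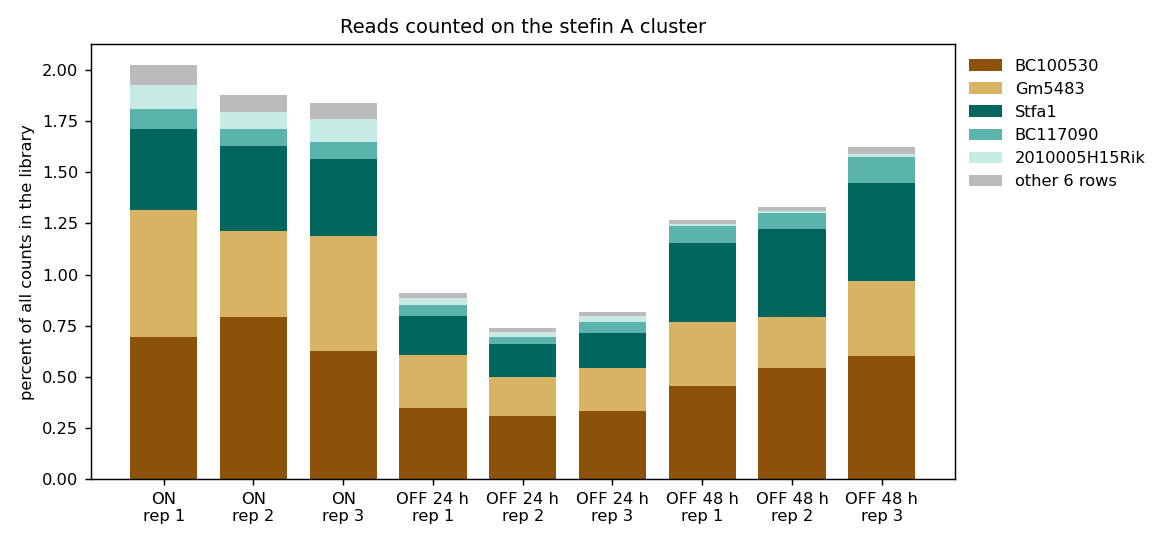
Percent of all counts in each library that fell on the 11 rows of the stefin A cluster, stacked by gene, with the 6 rows of fewest reads joined. BC100530, Gm5483 and Stfa1 make up most of each bar, and the bars of the OFF 24 h libraries are the lowest.

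Of the 5 cluster genes tested outside the described set, all fell in OFF24 against ON and 4 fell in OFF48 against ON. Over all tested genes, 17.4% and 23.9% fell in these comparisons. Gm5483, at 5336 ± 1033 CPM in ON cells, 2228 ± 372 in OFF24 cells, and 3074 ± 586 in OFF48, fell in OFF24 and in OFF48 against ON (log2 -1.26, adjusted p = 9.29e-05, and log2 -0.79, adjusted p = 0.00164), and its log2 fold change of 0.47 in OFF48 against OFF24 did not pass (adjusted p = 0.0683), although it did under 10 of 18 alternatives, DESeq2, limma-voom and the replicate block among them, and without any of ON replicate 1 or 2, OFF24 replicate 1 or OFF48 replicate 2. 2010005H15Rik fell further with time, to 130.5 ± 40.9 CPM in OFF48, against 1039 ± 200 in ON, with 282 ± 48.2 in OFF24. Its log2 fold change was -1.88 in OFF24 against ON (adjusted p = 4.62e-05), -2.96 in OFF48 against ON (adjusted p = 8.14e-07) and -1.08 in OFF48 against OFF24 (adjusted p = 0.0047). Gm5416 fell in OFF24 against ON (log2 -2.20, adjusted p = 0.000708) and in OFF48 against ON (log2 -1.44, adjusted p = 0.0047). Gm4758, a pseudogene in the GENCODE annotation, had at most 6 counts in 8 libraries and 270 in OFF48 replicate 3, and was not tested. RefSeq has a protein-coding gene, Cstdc3, at the same place. Along the chromosome, the genes with the largest remaining deficit in OFF48, 2010005H15Rik, Stfa2 and Stfa3, lay on both sides of Stfa1 and BC117090, whose log2 fold changes in OFF48 against ON were 0.13 and 0.10. At the 3′ end, 50.4% of the 50-base words of BC100530 and 33.7% of those of BC117090 occur in other genes of the cluster. Gm5483 and 2010005H15Rik share 37.0% of theirs with each other. Values of these single copies, and the differences between them, are therefore uncertain here too.

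**Figure D4:**
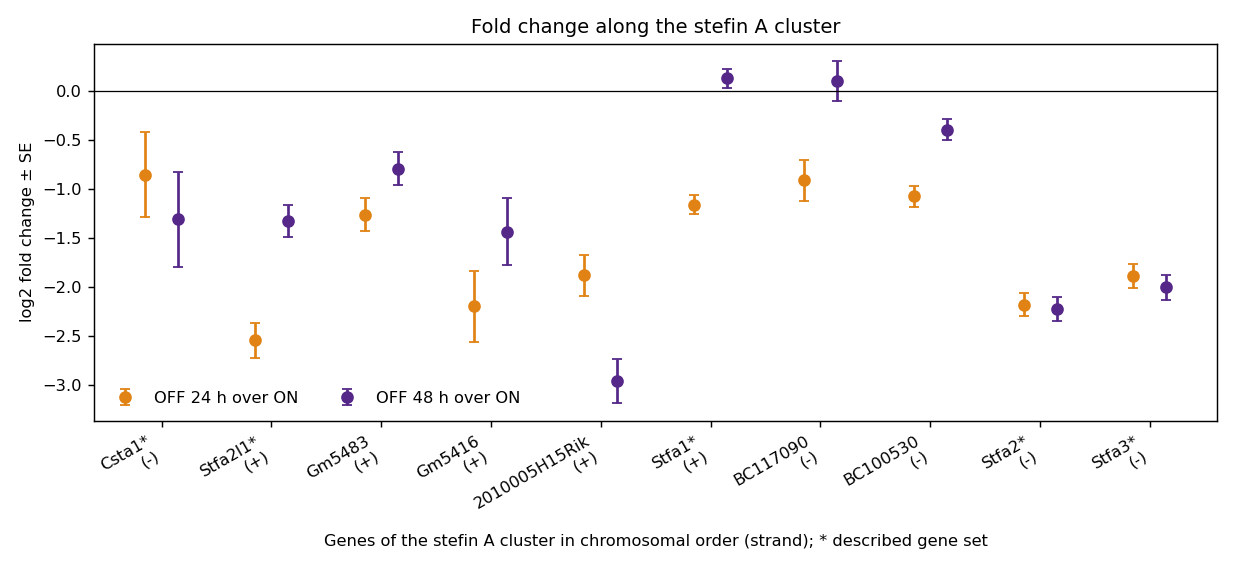
Log2 fold change (± SE) of the 10 tested genes of the stefin A cluster in OFF 24 h and OFF 48 h over ON, in their order on chromosome 16; spacing is not to scale, and asterisks mark the genes described. All lie below 0 at 24 h, whereas at 48 h Stfa1 and BC117090 lie near 0 and Stfa2, Stfa3 and 2010005H15Rik near -2 or below.

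The starts of Stfa1, Stfa2, Stfa2l1 and Stfa3 are printed because these copies followed different courses. They are the 250 bases before the RefSeq start of each gene on GRCm38.p6, in the direction of transcription: chr16:36276898-36277147 (plus) for Stfa1, chr16:36408364-36408613 (minus) for Stfa2, chr16:36156561-36156810 (plus) for Stfa2l1 and chr16:36455393-36455642 (minus) for Stfa3. The GENCODE starts given above for Stfa1 and Stfa2 lie inside these windows, so part of each window is within the gene in that annotation. Distances below are counted from the RefSeq start. RefSeq promoters were at hand for 6 of the 7 genes. Capitals mark 3 motifs searched on both strands: TTNNGNAA, a consensus of C/EBP factors; GAGGAA, a core bound by PU.1, which reads TTCCTC where it lies on the other strand; and TTTAAAA, an element rich in those letters that was picked after reading the sequences.
Stfa1: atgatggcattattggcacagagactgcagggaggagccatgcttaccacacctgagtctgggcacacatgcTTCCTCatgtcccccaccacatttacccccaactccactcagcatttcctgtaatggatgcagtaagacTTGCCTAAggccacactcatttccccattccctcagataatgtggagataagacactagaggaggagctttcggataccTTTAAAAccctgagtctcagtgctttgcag
Stfa2: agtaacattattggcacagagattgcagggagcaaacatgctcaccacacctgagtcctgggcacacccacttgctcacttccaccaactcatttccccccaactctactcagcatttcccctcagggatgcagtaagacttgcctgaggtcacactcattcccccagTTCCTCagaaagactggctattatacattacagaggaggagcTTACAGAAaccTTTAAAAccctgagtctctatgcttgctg
Stfa2l1: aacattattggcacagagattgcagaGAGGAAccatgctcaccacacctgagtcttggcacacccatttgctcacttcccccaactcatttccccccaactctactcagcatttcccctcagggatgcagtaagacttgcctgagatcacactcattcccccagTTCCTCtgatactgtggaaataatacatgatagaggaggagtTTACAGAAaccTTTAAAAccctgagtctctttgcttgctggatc
Stfa3: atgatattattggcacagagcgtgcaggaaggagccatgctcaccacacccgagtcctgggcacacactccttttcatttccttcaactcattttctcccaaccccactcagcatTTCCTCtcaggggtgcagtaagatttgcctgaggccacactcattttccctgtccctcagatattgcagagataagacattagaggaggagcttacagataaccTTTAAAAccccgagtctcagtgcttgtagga
TTTAAAA lies 30, 29, 33 and 31 bases before the start in Stfa1, Stfa2, Stfa2l1 and Stfa3, and occurs in 8.1% of 32851 promoter windows of this length. GAGGAA is present in all 4 (23.3% of windows), and TTNNGNAA in Stfa1, Stfa2 and Stfa2l1 but not in Stfa3 (36.8% of windows). The STAT consensus TTCNNNGAA, present in 7.02% of windows, has no match in the 6 genes. Among the other cluster genes with a promoter at hand, Gm5483 did have a match to the STAT consensus, 128 bases before its start. Gm5416 and 2010005H15Rik had none. Other motifs searched, among them those of ETS factors and ATF4, had no match in any of these promoters. No match overlapped another motif, and a match is a description of letters, not of binding. Stfa2 and Stfa2l1 are identical at 90.8% of these bases, Stfa1 and Stfa3 at 84.4% and Stfa2 and Stfa3 at 81.2%. Any relation between these sequences and the courses of the copies was not tested.

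Cstb, the stefin B gene, whose loss in people causes a progressive myoclonus epilepsy, differed far less. It had 200.4, 233 and 196 CPM in ON, 165, 166 and 179 in OFF24 and 159.5, 154 and 145 in OFF48 libraries. Each group lay below the one before it with no overlap, although the steps were small: log2 -0.31 ± 0.10 for OFF24 over ON, -0.46 ± 0.10 for OFF48 over ON and -0.16 ± 0.10 for OFF48 over OFF24. Cst3, the secreted cystatin C, went the other way. It had 252, 336 and 228 CPM in ON cells, 318, 404 and 344 in OFF24 cells, and 460, 601 and 500 in OFF48 libraries. The OFF24 libraries overlapped those of ON (1.31-fold, log2 0.38 ± 0.14), whereas the OFF48 libraries lay above both others, 1.90-fold above ON (log2 0.93 ± 0.14) and 1.46-fold above OFF24 (log2 0.54 ± 0.14). The overlap came from ON replicate 2 alone, and replicate 2 was the highest library in each group. Every OFF24 library lay above the ON library of the same number, but the labels do not say that equal numbers mark a pair. The ratio of Cst3 to Cstb was 1.29 ± 0.14 in ON, 2.10 ± 0.30 in OFF24 and 3.41 ± 0.51 in OFF48, with no overlap between groups.

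Read by their order, the counts of Stfa1 stood above those of the other 6 genes in every group. Next came Stfa3, Stfa2, Cst3 and Cstb in ON, each overlapping the next, whereas in OFF24 and OFF48 Cst3 and then Cstb stood above Stfa3 and Stfa2. Stfa2l1 and Csta1 were the lowest in every group.

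For background, 35.3% of all tested genes passed the threshold in OFF24 against ON (adjusted p under 0.05), 17.8% as higher and 17.4% as lower; of the 7 genes, 1 passed as higher and 5 as lower. In OFF48 against ON the background was 47.4%, with 23.4% higher and 23.9% lower, and again 1 passed as higher and 5 as lower. In OFF48 against OFF24 it was 21.2%, with 9.99% higher and 11.2% lower, and 3 of the 7 passed as higher and 0 as lower. Libraries of the 2 groups did not overlap in 49% of all genes for OFF24 against ON, 52.5% for OFF48 against ON and 38% for OFF48 against OFF24, and in 6, 6 and 4 of the 7 genes. Since the genes were chosen with these results known, nothing is read from those counts. The median log2 fold change of the 7 was -1.16, -1.31 and -0.04 in the 3 comparisons, against 0.03, 0.01 and 0.00 over all tested genes. These medians are the values of Stfa1, Csta1 and Stfa2, in that order, and Csta1 was close to the detection limit. The first and second comparisons share the ON libraries.

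Cell state markers changed over the same time. Neutrophil lineage genes, led by S100a8, summed to 14477 to 17047 CPM in ON cells, 17625 to 18227 in OFF24 cells, and 54926 to 63084 in OFF48 libraries, and 7 of 14 rose in OFF24 and 12 of 14 in OFF48 against ON with none falling. Monocyte and macrophage genes summed to 179 to 252, 371 to 388 and 220 to 285 CPM in ON, OFF24 and OFF48; all 6 tested rose in OFF24 against ON, and 5 rose and 1 fell in OFF48 against ON. Over all tested genes, 17.8% rose and 17.4% fell in OFF24, and 23.4% rose and 23.9% fell in OFF48, against ON. The part of these markers in the values of the stefins and cystatins was not tested. In such bulk libraries, fewer cells of a type and less RNA per cell cannot be told apart.

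The cysteine cathepsins, targets of these inhibitors, moved in both directions. They were listed together with legumain, which had too few counts to be tested. Of 11 listed genes 7 were tested. In OFF24 against ON 1 rose and 1 fell, where 35.3% of all tested genes passed in either direction. In OFF48 against ON 3 rose and 4 fell, where 47.4% of all tested genes passed. The list median was -0.19 and -0.40, against 0.03 and 0.01 over all genes. Ctsb, cathepsin B, averaged 117.6 CPM in OFF24 and 141 in OFF48, against 81.5 in ON, and rose at both times (log2 0.53, adjusted p = 0.000727, and 0.79, adjusted p = 5.69e-06). Ctsc, cathepsin C, which activates the serine proteases of neutrophil granules, averaged 31.7 CPM in OFF24 and 11.8 in OFF48, against 60.5 in ON, and fell at both times (log2 -0.94, adjusted p = 0.000434, and -2.30, adjusted p = 5.58e-08). At 48 h the aminopeptidase Ctsh rose (log2 1.79, adjusted p = 9.54e-05), and Ctsl and Ctss, endopeptidases of the lysosome, fell (log2 -0.63, adjusted p = 0.000951, and -0.99, adjusted p = 0.00446). Ctsz also fell (log2 -0.40, adjusted p = 0.0242), a call that was lost when ON replicate 2 or 3 or OFF48 replicate 1 or 2 was left out, and Ctso, named after its values were seen, rose (log2 1.34, adjusted p = 0.0184). Ctso had few counts, with 10, 5 and 3 in ON and 11, 6 and 16 in OFF48 libraries. Of the 3 tested cathepsins outside the papain family, 1 rose at each time, the serine carboxypeptidase Ctsa (log2 0.42, adjusted p = 0.00523, and 0.57, adjusted p = 0.000229); the aspartic protease Ctsd and the granule serine protease Ctsg had log2 fold changes between -0.07 and 0.15 that did not pass. All adjusted p-values here are from edgeR.

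**Figure D5:**
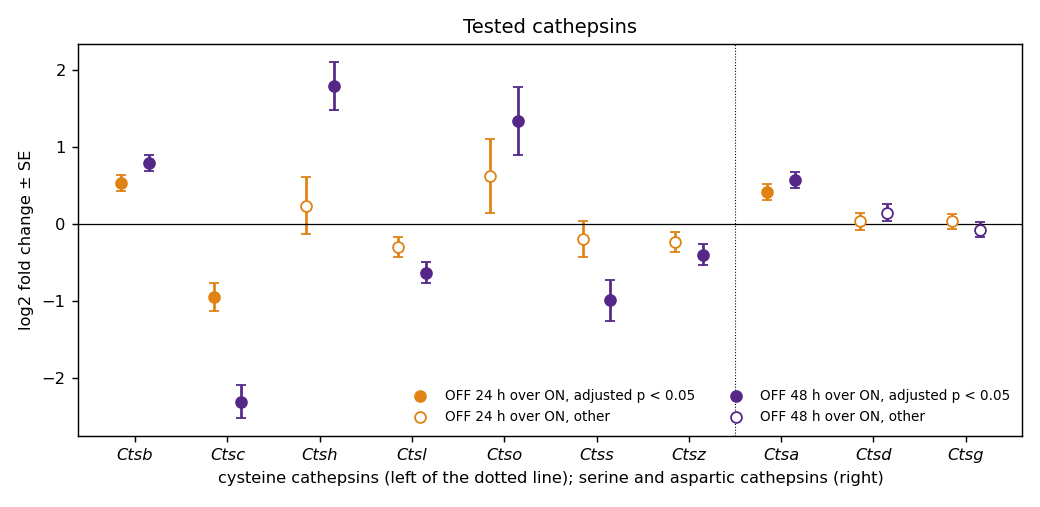
Log2 fold change (± SE) of the tested cathepsins in OFF 24 h and OFF 48 h over ON; filled symbols passed an adjusted p of 0.05 and open symbols did not. Ctsb lies above 0 and Ctsc below 0 at both times, and the others are spread on both sides.

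In the plot of tested cathepsins, Ctsb and Ctsc stand apart from 0 on opposite sides at both times. Beyond the 7 genes, 1 other cystatin of 16 listed was tested: Cst7, the leukocyte cystatin F that travels to lysosomes and inhibits cathepsin C. It averaged 89.9 CPM in OFF24 and 43.8 in OFF48, against 74.9 in ON; the log2 fold change of 0.26 at 24 h did not pass (adjusted p = 0.0742; it passed with the replicate block and with upper quartile scaling), and it fell at 48 h (log2 -0.79, adjusted p = 3.37e-05), whereas Cst3 was higher at 48 h. Calpains, cytosolic cysteine proteases, are held by Cast, calpastatin. The list of 8 tested genes holds Cast itself and the subunit gene Capns1. In OFF24 against ON 1 rose (Cast) and 1 fell (Capn2), and 35.3% of all tested genes passed. In OFF48 against ON 2 rose (Cast and Capn3) and 1 fell (Capn2), and 47.4% of all tested genes passed. Cast rose in both (log2 0.32, adjusted p = 0.0165, and 0.48, adjusted p = 0.000591), the first of which was lost without ON replicate 1 or 3 or OFF24 replicate 1 or 2 and with no filter on low counts, and Capn2 fell in both (log2 -0.71, adjusted p = 0.0132, and -2.40, adjusted p = 9.08e-07), the first of which was lost without OFF24 replicate 1 and with DESeq2. Capn3 rose at 48 h (log2 0.77, adjusted p = 0.00659).

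Inhibitors of serine and metalloproteases moved both ways, with 4 of 10 tested rising and 4 falling in OFF24 against ON, and 4 rising and 5 falling in OFF48 against ON. The share of all tested genes that passed was 35.3% and 47.4% in these comparisons. Slpi, which blocks neutrophil elastase and cathepsin G, averaged 904 CPM in OFF24 and 614 in OFF48, against 1296 in ON (log2 -0.52, adjusted p = 0.00336, and -1.07, adjusted p = 1.33e-06). Spint1, a membrane Kunitz inhibitor, fell to 8.9 CPM in OFF24 and 1.7 in OFF48, against 21.8 in ON (log2 -1.29, adjusted p = 0.000305, and -3.57, adjusted p = 6.04e-08; without OFF48 replicate 1 the second was -4.63). Spint1 held 10, 1 and 3 counts in the OFF48 libraries, close to the detection limit, so the size of the fall at 48 h is uncertain. Serpinb6a, an intracellular inhibitor of cathepsin G, rose at both times (log2 1.18, adjusted p = 0.000318, and 1.71, adjusted p = 1.76e-06). Spint2 rose as well (log2 0.95, adjusted p = 0.000987, and 0.66, adjusted p = 0.0106), the second of which was lost without OFF48 replicate 3.

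The genes whose levels were most like those of the 3 profiles were ranked by Pearson's r of log2 CPM over the 9 libraries among 7659 genes, a description that largely reflects the 3 groups. The summed stefin A genes were most like Pak2 (r = 0.974), Bcl2l1 (0.952), Akap11 (0.941), Mat2a (0.941) and Abcf2 (0.938). Cstb was most like Klhdc2 (0.988), Mrpl10 (0.986), Copb2 (0.975), Ssr2 (0.971) and Pfdn1 (0.970). Cst3 was most like Napsa (0.993), Evi2 (0.993), Pcdh7 (0.987), Evi2b (0.984) and Arhgdib (0.983). Since the stefin A sum is mostly Stfa1, Stfa2 was ranked as well, after its values were seen; it was most like Lrp8 (0.994), which averaged 8.9 CPM in OFF24 and 7.4 in OFF48, against 47.6 in ON.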

How the data were processed

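The samples were 9 libraries made with the Lexogen QuantSeq 3' kit from TriZol-extracted, DNase-treated RNA, per the labels' protocols; groups and replicate numbers come from the titles. The count table deposited by the authors holds whole-number reads per gene symbol, not normalised. A second deposited table holds normalised log2 values, by voom and limma per its name, with 10552 rows; it served only as an alternative. Reads were handled with HISAT2 2.0.4, cutadapt 1.5, bcl2fastq 2.17.1.14 and FastQC 0.11.2, and with featureCounts, Subread 1.5.0-p3, limma 3.42.2 and R 3.6.1, all named without a role in the submitters' processing notes. Those notes give the build as mm10, the same as GRCm38. For the annotation, strand setting and multiply mapped reads, what was used is not given in the sources used here. No column was left unmatched.

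Counts were analysed with edgeR 4.0.16 in R 4.3.3: filterByExpr by group (10215 genes kept), TMM scaling, robust quasi-likelihood with 1 mean per group over all 9 libraries (6 residual degrees of freedom), and Benjamini-Hochberg adjustment across all genes tested, threshold 0.05. SE is the log2 fold change divided by the root of F, an approximation. On simulated counts with 200 genes changed 2-fold, the fit recovered 82% (OFF24 against ON), 85% (OFF48 against ON) and 82.5% (OFF48 against OFF24). These counts were drawn with the spread estimated by the same fit and without deviations shared by same-numbered libraries. The recovery therefore checks the working of the fit, not its assumptions about these libraries. Transcripts, positions and coding sequences are from GENCODE on GRCm38, promoters from RefSeq on GRCm38.p6, compared with Biopython 1.88. Libraries within groups differed beyond sampling noise, with a chi-square of 1.99 to 6.99 for each degree of freedom. The numbers of the replicates were checked for pairing: correlations of same-numbered deviations ran from -0.01 to 0.41, over 0.1 in all 3 pairs of OFF48 with ON. In the other comparisons only replicate 2 exceeded 0.1 (0.20 for OFF24 with ON and 0.18 for OFF48 with OFF24). The main fit took the numbers as numbers only, so deviations shared by same-numbered libraries, largest for replicate 2, remain in its values. A fit with the replicate number as a block was an alternative. Genes named outside the 7 are the cluster genes with a count, up to 4 tested genes per list with the smallest p in a comparison, and the 5 closest by r; those named otherwise are marked, and 1 gene of the list of other protease inhibitors, included in its counts, is not reported here. The members and lists were chosen with earlier results of these data known. Alternatives were other scalings (RLE, upper quartile, library size), no filter, DESeq2 1.42.0, limma-voom with limma 3.58.1, only the groups compared, a replicate block, leaving out each library, summing the cluster into 1 row and the deposited log2 table.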

Additional observations from a re-analysis of the deposited data

Results flagged for a closer look

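Genes outside the 7 described whose effects at the 2 times without doxycycline differed, by the test of OFF48 against OFF24 itself (edgeR, adjusted over all tested genes), were as follows. In the stefin A cluster, BC100530 (log2 fold change 0.68, adjusted p = 0.000126) and BC117090 (1.01, adjusted p = 0.00494) were higher in OFF48 than in OFF24, and 2010005H15Rik was lower (-1.08, adjusted p = 0.0047). Among cystatins, cathepsins and calpains, Ctsh (1.55, adjusted p = 0.00138) and Capn3 (0.99, adjusted p = 0.00421) were higher in OFF48, and Cst7 (-1.05, adjusted p = 4.66e-06), Ctsc (-1.36, adjusted p = 0.000321), Capn2 (-1.69, adjusted p = 0.000581) and Ctss (-0.80, adjusted p = 0.0464) were lower; the call of Ctss was lost when any of the 9 libraries but OFF48 replicate 3 was left out, with a log2 fold change of -0.50 without OFF48 replicate 1. Among other inhibitors, Slpi (-0.55, adjusted p = 0.00392), Serpinb8 (-1.63, adjusted p = 0.00571) and Spint1 (-2.27, adjusted p = 0.000392, and -3.32 without OFF48 replicate 1) were lower in OFF48. The OFF48 libraries held few counts of Serpinb8 (8, 4 and 6), Spint1 (10, 1 and 3) and Capn2 (8, 5 and 8).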

How the results depend on the processing

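The counts of genes called stayed within 1.5 times of those reported under every alternative run: from 2848 to 4201 for OFF24 against ON (3602 reported), from 4164 to 5197 for OFF48 against ON (4841) and from 1506 to 2701 for OFF48 against OFF24 (2161). DESeq2 called fewest of the tools, at 2854, 4164 and 1715. The direction of each of the 7 described genes held in OFF24 and OFF48 against ON under all alternatives. From the deposited log2 table with limma, the median log2 fold change of the 7 was -1.42 in OFF24 against ON and -1.14 in OFF48 against ON, and it changed sign in OFF48 against OFF24, to 0.28, as did that of Csta1 (0.28), which has few counts; the cause was not tested. Stfa1 in OFF48 against ON was 0.28 there. Leaving out 1 library at a time gave medians of the 7 from -1.24 to -1.12 and from -1.31 to -1.15 in OFF24 and OFF48 against ON.

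Same-numbered replicates deviated together in all 3 pairs of OFF48 with ON (correlations 0.11, 0.41 and 0.20) but not in every pair of the other comparisons (from -0.01 to 0.20). With the replicate number as a block, 4201, 5192 and 2701 genes were called in the 3 comparisons, and the medians of the 7 were -1.16, -1.35 and -0.04. Among the genes named outside the 7, the block changed no call in OFF48 against ON; Cst7 (0.27) and Ctsl (-0.30) gained a call in OFF24 against ON, and Gm5483 (0.46), Ctsb (0.27) and Serpinb6a (0.53) in OFF48 against OFF24. Outside the 7, OFF48 against OFF24 for Ctss lost its call under 13 of 19 alternatives. Csta1, with 1 to 19 counts a library, is limited by depth; without ON replicate 1 or 2 it left the fit, so neither it nor the median of the 7 has a value there; with the cluster summed into 1 row, the stefin A genes have none of their own.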
